A study of Mus musculus with 16 samples.

Results

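The SOD1G93A transgene was examined in inguinal white adipose tissue (iWAT), a fat pad under the skin of the groin, in mice, in the 10 of 16 RNA sequencing libraries that held almost no lymph node transcript. The 10 libraries were chosen on the level of Glycam1, a mucin-like glycoprotein made by the high endothelial venules of lymph nodes, at or below 1 CPM, counts scaled to the library total. Carriers were SOD1G93A 3 and SOD1G93A-Lepob/+ 1 to 4, and non-carriers were WT 3 and 4 and Lepob/+ 1, 2 and 4, so that 5 carriers were compared with 5 non-carriers. All animals were C57BL/6, labelled female and 90 days old. The SOD1G93A transgene is a mutant human SOD1 gene that causes motor neuron disease in mice. Lepob/+ animals carried 1 ob allele of Lep, and SOD1G93A-Lepob/+ animals carried both mutations. The ob allele was therefore present in 4 of 5 carriers and 3 of 5 non-carriers, which leaves the transgene partly confounded with it. The study asked how the transgene and a lower leptin dose act on this fat depot.

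White adipose tissue stores triglyceride in adipocytes and secretes leptin, which reports fat stores to the brain. It also holds progenitors, vessels, nerves and immune cells, and the inguinal depot contains a lymph node and, in females, mammary epithelium. SOD1 is the cytosolic superoxide dismutase, and mice with the mutant transgene lose weight and body fat as the disease advances. In whole tissue, fewer cells of a type and less RNA per cell cannot be told apart.

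Glycam1 had 0 counts in 9 of the 10 libraries and 3 counts, or 0.0604 CPM of the total, in Lepob/+ 1. The 6 libraries outside the limit held between 226.5 and 664.9 CPM, so that no library lay near it. Total counts ran from 36795376 to 61886313 in the 10 libraries. The 20 mature adipocyte markers summed to between 37870 and 64580 CPM in each of the 10, so the labelled tissue was present in all, and Adipoq, the gene of the hormone adiponectin, ranged from 1286 to 3109 CPM. Mouse Sod1 does not measure the human transgene, and the labels of the carriers could not be checked by it.

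3 libraries stood apart. Lepob/+ 4 held 204000 scaled CPM of skeletal muscle transcripts, summed over the genes tested, and WT 3 held 5327 CPM. The other 8 libraries held between 158 and 384 CPM. As another measure, the share of muscle transcripts in the total counts was 20.9% in Lepob/+ 4 and 0.811% in WT 3. The muscle list had 48 members, of which 29 were expressed well enough to test, and all 29 were lower in carriers, with a median log2 fold change of -7.82. Without both libraries the median over the list was 0.49, and muscle genes are left aside below. The library labelled SOD1G93A-Lepob/+ 3 had 0 counts of Xist, which female cells transcribe from the inactive X chromosome, and 1756 counts of 4 Y-linked genes. Xist lay between 11895 and 28034 counts in the other 9 libraries, in which those Y-linked genes had 0 counts. Whether this mouse was a male was not tested, and values without this library are given for some results below.

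**Figure D1:**
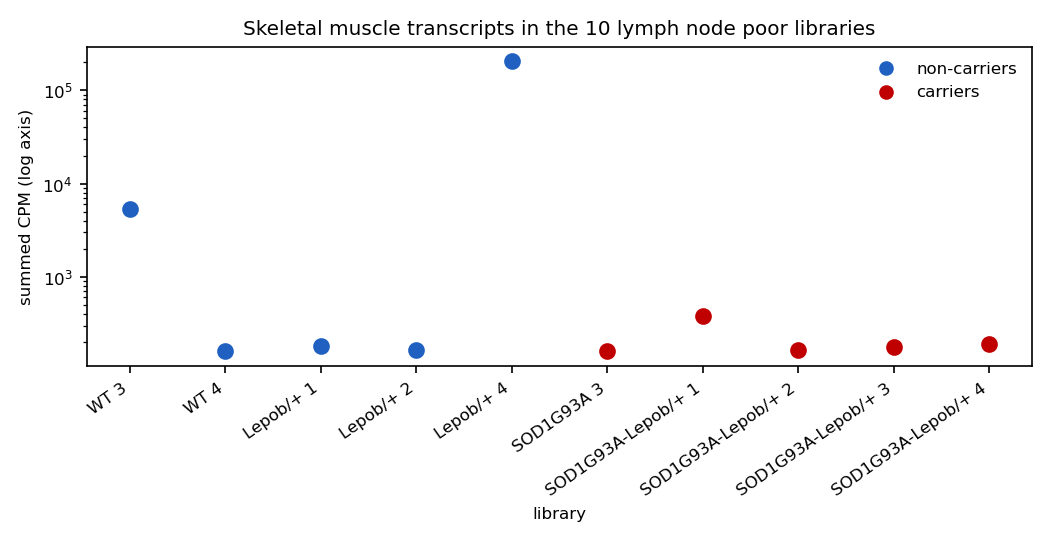
Summed level of the skeletal muscle genes tested (CPM, log axis) in each of the 10 lymph node poor libraries, with non-carriers in blue and carriers in red. Lepob/+ 4 stands at 204000 CPM and WT 3 at 5327 CPM, while the other 8 libraries lie between 158 and 384 CPM.

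Of 18218 genes tested in the 10 libraries, none was called different between carriers and non-carriers at an adjusted p under 0.05 (0% of genes). The smallest adjusted p was 0.945 by edgeR's quasi-likelihood test with Benjamini-Hochberg adjustment. At an unadjusted p under 0.05, 256 genes (1.41%) were higher and 539 (2.96%) were lower in carriers. The lower side held 27 of the 29 muscle genes. DESeq2 called 3 genes in the same 10 libraries, which were Wdr66 and Pfkfb4 on the lower side and Gm37397 on the higher side, and limma's voom with sample weights called 0. Without Lepob/+ 4 the unadjusted counts were 408 higher and 409 lower, with DESeq2 403 and 403, and with a replicate block the balance turned to 326 higher and 217 lower.

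For 46 genes (0.252% of those tested) every carrier lay above every non-carrier, and for 58 (0.318%) every carrier lay below. If the 10 libraries were in random order, a gene would separate 5 from 5, in either direction, with a probability of 0.00794. Under a stricter filter of 1 CPM in 5 libraries 82 genes did not overlap, instead of 104. The count was 228 of 18292 without the library labelled SOD1G93A-Lepob/+ 3 and 878 of 18733 without Lepob/+ 4 and WT 3. Fewer libraries separate more readily by chance, so these counts are not comparable with the 104. The 104 genes were spread over all autosomes and the X chromosome. Chromosome 7 held 13 of them among 1403 genes tested, and chromosomes 4 and 10 held 9 each, among 1142 and 852.

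**Figure D2:**
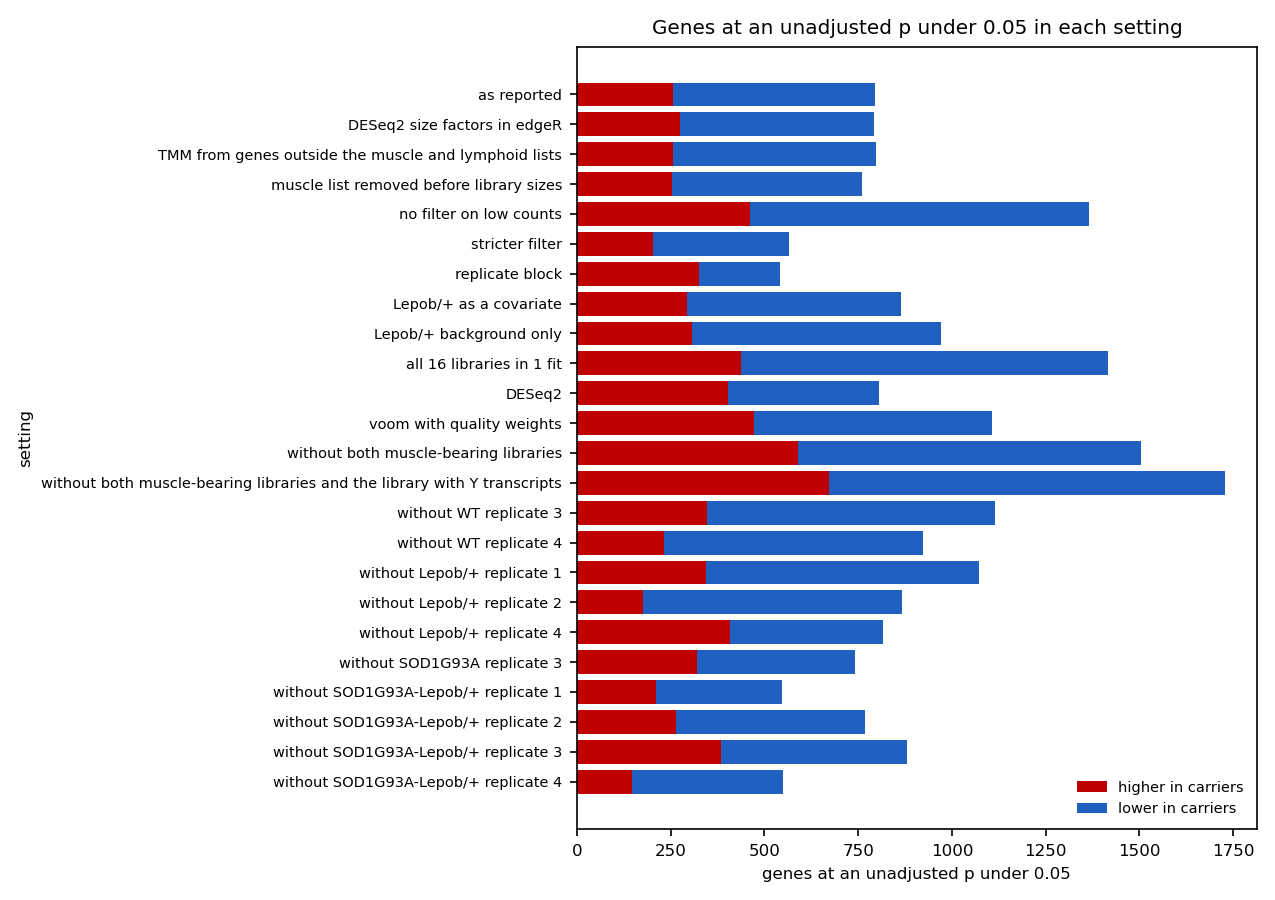
Number of genes at an unadjusted p under 0.05 in the comparison of carriers with non-carriers (x axis) under each setting of the analysis (y axis), with genes higher in carriers in red and lower in blue. The count was 795 as reported, 543 with a replicate block and 1505 without both muscle-bearing libraries.

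The gene with the smallest p was Pfkfb4 (chr9:108991778-109032228, GRCm38), an isoform of the bifunctional kinase and phosphatase that sets the level of a sugar phosphate activator of glycolysis. Its level was 29.3 CPM in WT 3, 35.6 in WT 4, and 26.4, 30.2 and 36.4 in Lepob/+ 1, 2 and 4. In carriers it was 13.7 CPM in SOD1G93A 3 and 13.1, 12.8, 11.5 and 23.1 in SOD1G93A-Lepob/+ 1 to 4. All carriers lay below all non-carriers, and SOD1G93A-Lepob/+ 4 was the closest to them. The mean was 14.8 ± 4.68 CPM (SD) in carriers against 31.6 ± 4.29 CPM in non-carriers, 0.469 of the non-carrier level. The log2 fold change was -1.09 ± 0.19 (SE), with an unadjusted p of 0.000202 by edgeR's quasi-likelihood test. Without SOD1G93A-Lepob/+ 4 it was the 1 gene called, at a log2 fold change of -1.31 and an adjusted p of 0.0358 by the same test with Benjamini-Hochberg adjustment. Its log2 fold change was -1.04 without the muscle-bearing libraries and -1.01 without the library labelled SOD1G93A-Lepob/+ 3.

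Wdr66, which encodes a protein of cilia and flagella, was at 3.30 to 4.67 CPM in carriers and 5.48 to 6.64 CPM in non-carriers, a log2 fold change of -0.66 ± 0.13. Fbxw7 encodes the subunit by which a ubiquitin ligase recognises Myc and cyclin E. Its level was 7.08 CPM in SOD1G93A 3 and 6.96, 7.04, 6.55 and 7.17 in SOD1G93A-Lepob/+ 1 to 4. In non-carriers it was 8.22 CPM in WT 3, 10.9 in WT 4, and 16.9, 15.97 and 27.8 in Lepob/+ 1, 2 and 4. The carriers sat close together, with an SD of 0.241 CPM, while non-carriers were spread with an SD of 7.54 CPM and came closest to them in WT 3. The log2 fold change of Fbxw7 was -1.20 ± 0.28, and -1.06 without the muscle-bearing libraries. Myc itself was at 22.4 ± 5.21 CPM in carriers and 16.8 ± 2.46 CPM in non-carriers, with overlapping groups.

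Mif4gd, which takes part in the translation of histone mRNA, was at 29.9 ± 4.37 CPM in carriers and 42.5 ± 4.35 CPM in non-carriers. Rab42, a small GTPase, was at 0.502 ± 0.142 CPM against 1.06 ± 0.133 CPM. Ascl2, a basic helix-loop-helix transcription factor, was at 0.471 ± 0.151 CPM against 1.03 ± 0.351 CPM. These are low levels, and so are those of Gm36723, a long noncoding RNA (0.390 against 1.19 CPM), of BC035044 (1.97 against 2.90 CPM) and of Rasl2-9 (0.704 against 1.04 CPM), a close relative of Ran whose reads may be shared with it. Slc16a3, which exports lactate from cells, was at 1.88 to 3.32 CPM in carriers and 3.35 to 7.34 CPM in 4 non-carriers, but at 169.7 CPM in the muscle-rich Lepob/+ 4. Its log2 fold change of -3.83 ± 1.15 was -1.13 without both muscle-bearing libraries.

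Among genes that were higher in carriers, Gm37397 had the smallest p. It is a short annotated locus of unresolved coding status on chromosome 6 that overlaps Pyurf on the same strand, so reads of both could be shared. It was at 2.12 CPM in SOD1G93A 3 and at 1.62, 3.44, 2.103 and 1.76 in SOD1G93A-Lepob/+ 1 to 4, against 0.682 to 1.26 CPM in non-carriers, a log2 fold change of 1.34 ± 0.26. C130021I20Rik, a noncoding RNA annotated as antisense, was at 57.0 ± 16.3 CPM in carriers against 26.1 ± 8.77 CPM. The strand setting of the counting is not given in the sources used here, so reads of genes on opposite strands cannot be told apart. This bears on Mif4gd, which overlaps Mrps7, on BC035044, which overlaps Clec2i, and on Wdr66, Fbxw7, Foxo1 and Hhipl1, which overlap other annotated loci on the opposite strand.

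Foxo1, the forkhead factor that insulin signalling keeps out of the nucleus, was among the more abundant of these genes. Its level was 131.1 CPM in SOD1G93A 3 and 88.3, 88.5, 96.4 and 117.9 in SOD1G93A-Lepob/+ 1 to 4. In non-carriers it was 74.9 and 78.2 CPM in WT 3 and 4 and 82.3, 74.3 and 80.6 in Lepob/+ 1, 2 and 4. The groups did not overlap, and the carriers were spread more widely than the non-carriers. The log2 fold change was 0.42 ± 0.12, and it was 0.43 without the muscle-bearing libraries and 0.45 without the library labelled SOD1G93A-Lepob/+ 3.

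Mpp7, a scaffold of cell polarity, was at 23.7 ± 1.59 CPM in carriers against 14.6 ± 4.54 CPM. Resf1, a factor that silences retroelements, was at 25.02 ± 9.35 against 14.3 ± 2.39 CPM. The mean level of Garnl3, Hhipl1, Ctbp2, a transcriptional corepressor, 1190002N15Rik and Prmt2, an arginine methyltransferase, was 1.38, 1.39, 1.26, 1.28 and 1.26 times that in non-carriers. The unadjusted p of the 20 genes named so far for groups without overlap ran from 0.000202 to 0.00814 by edgeR's quasi-likelihood test. Because the groups of these genes do not overlap, their direction is fixed by the choice when libraries are left out.

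**Figure D3:**
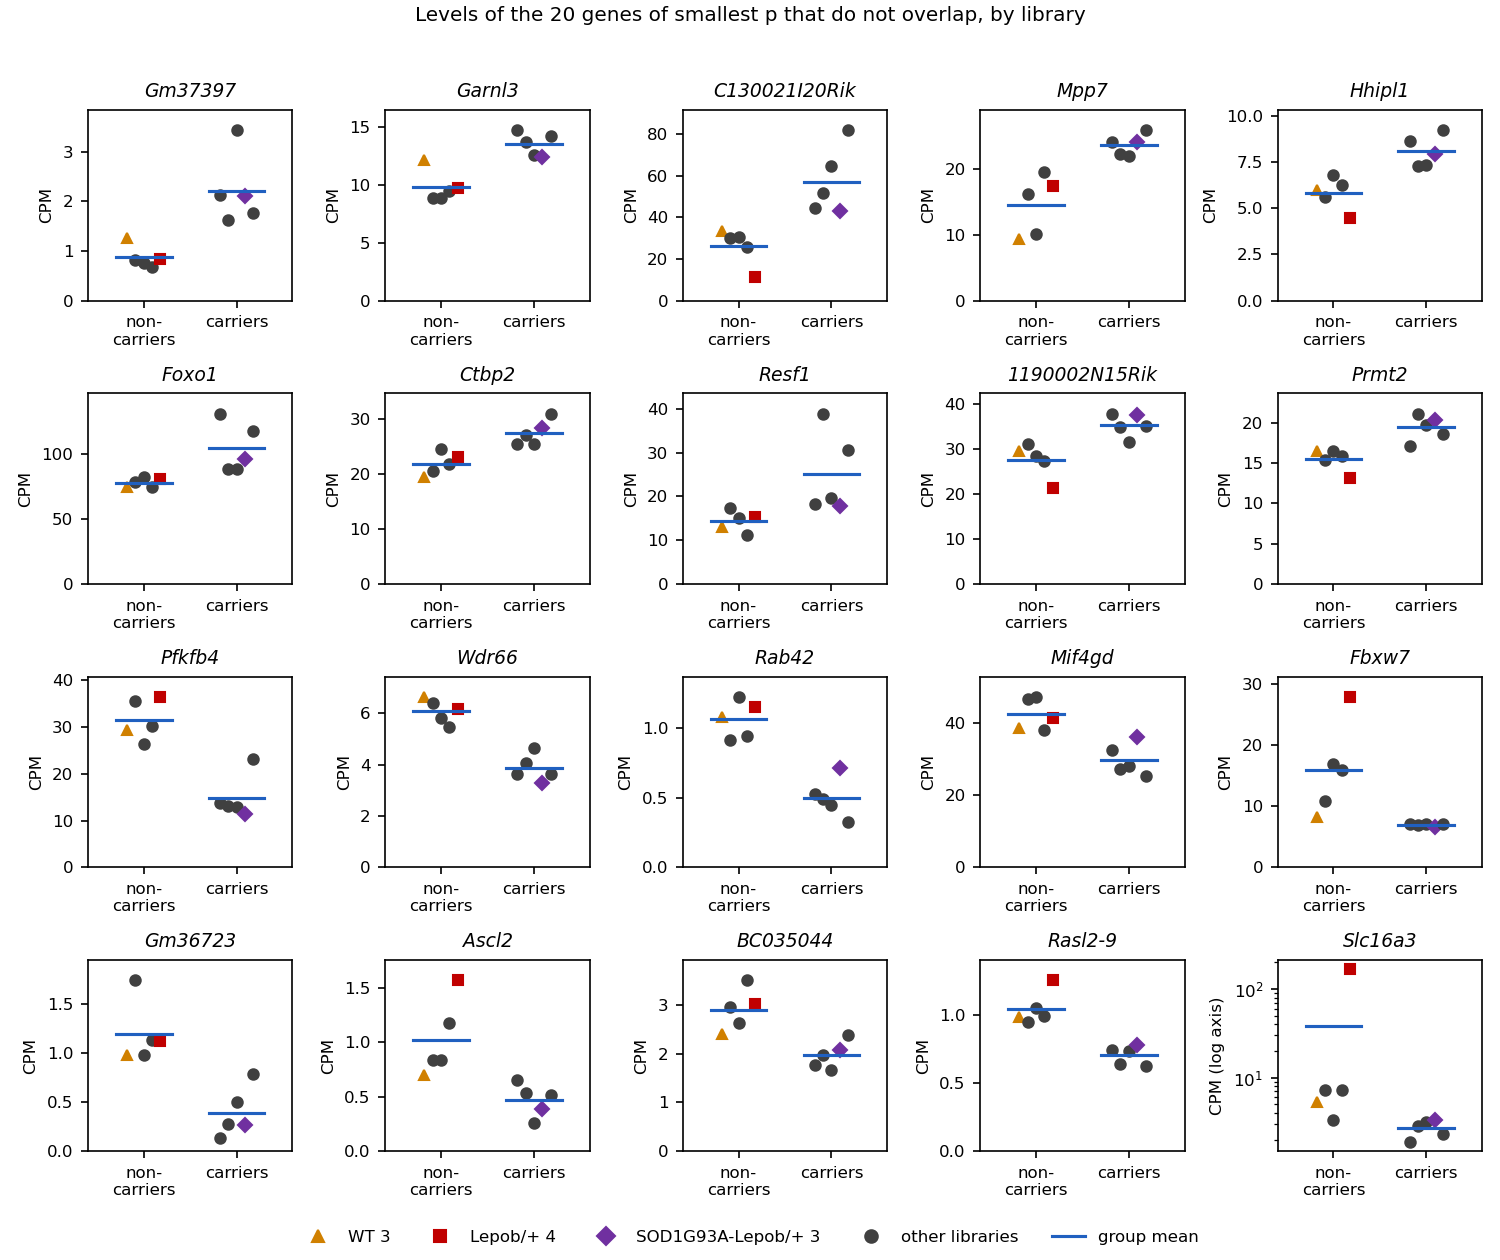
Level (CPM) of the 10 genes of smallest p that were higher and the 10 that were lower in carriers with no overlap of the groups, each point being 1 of the 10 libraries and each blue line a group mean. WT 3, Lepob/+ 4 and the library labelled SOD1G93A-Lepob/+ 3 have their own symbols, the axis of Slc16a3 is a log axis, and all other axes start at 0.

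The other 6 libraries of the series, 3 carriers (SOD1G93A 1, 2 and 4) and 3 non-carriers (WT 1 and 2 and Lepob/+ 3), hold lymph node transcripts and took no part in the choice of these genes. Of the 20 genes, 7 had the same direction there, 2 of the 10 higher and 5 of the 10 lower, where 8567 of 17881 genes (47.9%) did so over all genes tested in both. Pfkfb4 was at 26.0, 12.4 and 11.3 CPM in the 3 carriers and at 10.2, 13.4 and 8.39 CPM in the 3 non-carriers. All of these but SOD1G93A 1 lay near the level of the carriers of the 10, and the log2 fold change was 0.63. The difference between both sets of libraries, as the interaction of transgene and lymph node class, was -1.75 for Pfkfb4, at an adjusted p of 0.877 by edgeR's quasi-likelihood test with Benjamini-Hochberg adjustment. Of the other 6 libraries, only the non-carrier Lepob/+ 3 held the ob allele. Any comparison of the 10 with the 6 therefore also mixes in that allele. Wdr66 (-0.27), Rab42 (-0.03), Fbxw7 (-0.43), Ascl2 (-1.22) and Rasl2-9 (-0.77) were lower in both sets, and Foxo1 (0.06) and Resf1 (0.27) were higher in both. For Foxo1 and Rab42 this is a shared sign only, since their groups differed little in the other 6. Foxo1 was there at 111.1 to 145.5 CPM in carriers and 108.9 to 139.6 CPM in non-carriers, and Rab42 at 0.649 to 0.800 against 0.529 to 0.872 CPM.

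**Figure D4:**
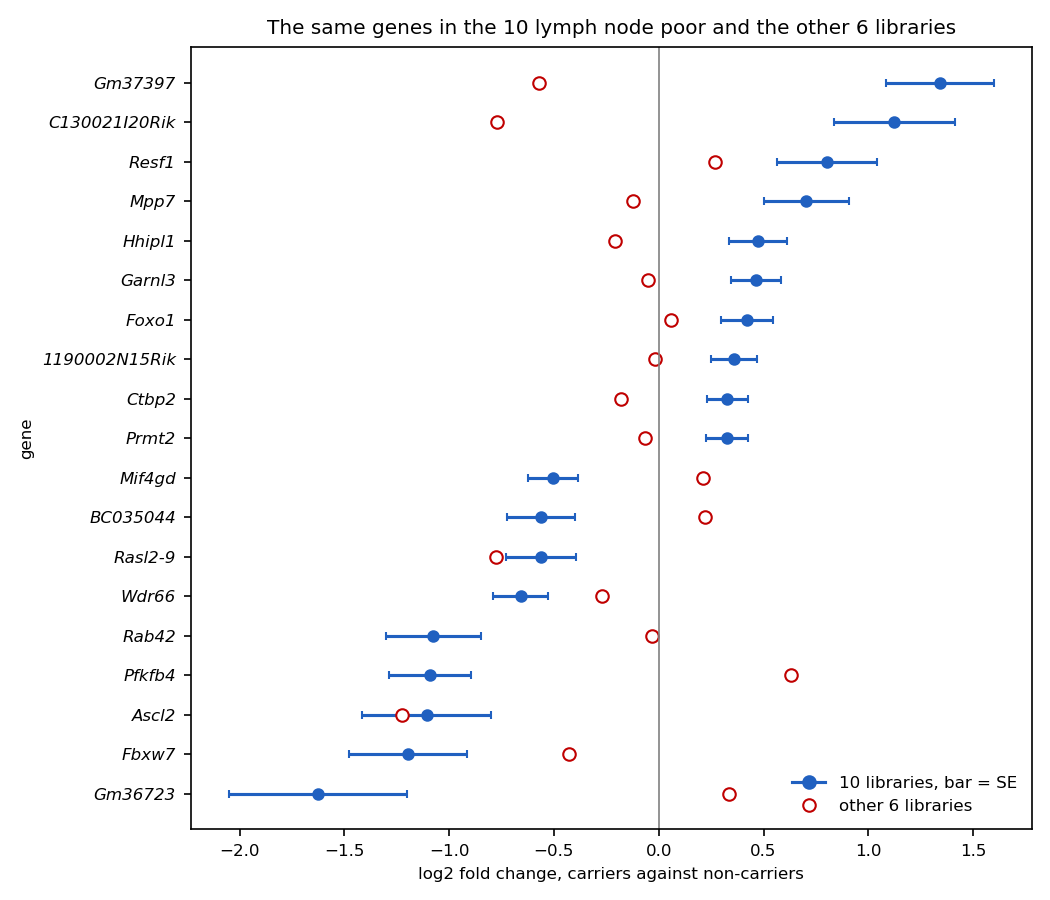
Log2 fold change of carriers against non-carriers (x axis) for 19 of the 20 genes whose groups did not overlap (y axis; Slc16a3 is left out because of its muscle component), in the 10 lymph node poor libraries (filled, with SE) and in the other 6 (open). Open points lie on the other side of 0 for 8 of the 10 higher genes, among them Gm37397 at -0.57 and C130021I20Rik at -0.77.

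Of the 104 genes without overlap, 101 were tested in the other 6 libraries and 55 of them (54.5%) had the same direction. In those 6 libraries 1000 of 19194 genes (5.21%) had every carrier above every non-carrier and 1112 (5.79%) had every carrier below. Groups of 3 separate far more readily by chance than groups of 5. These shares are therefore not comparable with those of the 10 libraries. 9 genes separated the groups in both sets, 3 in the same direction and 6 in opposite directions, and those named here were named after their values were seen. Fuz, an effector of planar cell polarity and cilia, Tmem136 and Ndufaf3, an assembly factor of respiratory complex I, were lower in carriers in both. Fuz was at 13.4 to 17.3 CPM in the 5 carriers and 17.7 to 24.2 CPM in the 5 non-carriers, and at 19.6 to 20.9 against 22.5 to 23.6 CPM in the other 6. Its log2 fold changes were -0.35 and -0.19, those of Tmem136 -0.37 and -0.63, and those of Ndufaf3 -0.17 and -0.18. Fuz and Ndufaf3 overlap Ap2a1 and Impdh2 on the opposite strand.

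Among the genes with opposite directions, Ddr1, a collagen receptor, was at 63.9 to 79.0 CPM in carriers and 49.9 to 62.6 CPM in non-carriers of the 10, and at 44.8 to 52.4 against 59.4 to 66.8 CPM in the others. Caskin1 and Fam174b were also higher in carriers of the 10 and lower in carriers of the other 6, and Gm20544 and Gm26510 were lower in the 10 and higher in the other 6. The interaction was called for 0 of 20157 genes (0%) by edgeR's quasi-likelihood test, with a smallest adjusted p of 0.471 after Benjamini-Hochberg adjustment, and 1089 genes were at an unadjusted p under 0.05. With Lepob/+ as a covariate the smallest adjusted p was 0.762 by the same test and adjustment. DESeq2 called 18 genes for the interaction, among them Caskin1 (1.58), Ddr1 (0.57) and Pfkfb4 (-1.77). Caskin1 and Ddr1 had been picked for their opposite directions and Pfkfb4 for its p in the 10, so these calls are no separate evidence. The 18 also held Myog, Myod1 and Chrnd, each at -30, and others such as Gm21983 (22.9) and Fcrl5 (-22.3). Values of this size were not examined further.

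Genes of superoxide handling differed little between the groups. Mouse Sod1 was at 425.4 CPM in SOD1G93A 3, 399.7, 370.2, 301.5 and 432.1 in SOD1G93A-Lepob/+ 1 to 4, 483.6 and 341.6 in WT 3 and 4, and 390.5, 400.9 and 266.6 in Lepob/+ 1, 2 and 4. The groups overlapped, with a log2 fold change of 0.03 ± 0.17. The mitochondrial Sod2 (-0.23 ± 0.30), the extracellular Sod3 (0.23 ± 0.23) and Ccs, the copper chaperone of Sod1 (0.07 ± 0.08), overlapped as well. Sod3 was at -0.0044 without the library labelled SOD1G93A-Lepob/+ 3. Of 27 antioxidant genes tested, 17 were higher and 10 lower. Their median was 0.03 on the log2 scale, beside -0.03 over all genes. The 1 member at an unadjusted p under 0.05 was Gclc, the catalytic subunit of the enzyme that starts glutathione synthesis, at 71.2 CPM in SOD1G93A 3 and 86.0, 79.9, 55.0 and 123.7 in SOD1G93A-Lepob/+ 1 to 4. Its non-carriers were at 49.2 to 65.8 CPM, overlapping with the library labelled SOD1G93A-Lepob/+ 3 alone. In the other 6 libraries Gclc was lower in carriers, at 58.8 to 83.5 against 91.0 to 104.7 CPM. The log2 fold changes were 0.60 and -0.51.

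Lep was at 946.3 CPM in SOD1G93A 3, 666.1, 520.5, 1762 and 556.1 in SOD1G93A-Lepob/+ 1 to 4, 663.3 and 611.2 in WT 3 and 4, and 530, 430 and 662.1 in Lepob/+ 1, 2 and 4. The highest value belonged to the library labelled SOD1G93A-Lepob/+ 3, and the groups overlapped. The log2 fold change of 0.62 ± 0.33 was 0.21 without that library. In the other 6 libraries Lep was at 263.9 to 390.4 CPM in carriers and 197.0 to 231.8 CPM in non-carriers, a log2 fold change of 0.58. Lepr, its receptor, was at 4.91 to 6.09 CPM in carriers and 2.59 to 5.64 CPM in non-carriers (0.47 ± 0.19). In the other 6 its log2 fold change was 0.42, with overlapping groups. There SOD1G93A 1, 2 and 4 were at 7.05, 20.8 and 10.25 CPM, and WT 1, WT 2 and Lepob/+ 3 at 7.96, 10.6 and 9.93. Only SOD1G93A 2 lay above these non-carriers. Lepr was the 1 of 9 genes of leptin receptor signalling at an unadjusted p under 0.05 in the 10, and their median was -0.02.

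Lists of gene function and cell type were described by their counts and medians, beside the median of -0.03 over all genes. Over 694 tested genes of the 40 lists other than muscle and sex-linked genes, 12 (1.73%) were higher and 10 (1.44%) lower at an unadjusted p under 0.05, beside 1.41% and 2.96% of all genes. Foxo1 was the 1 list gene whose groups did not overlap. The plot of list medians shows each list in the 10 libraries, without the muscle-bearing libraries, and in the other 6.

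**Figure D5:**
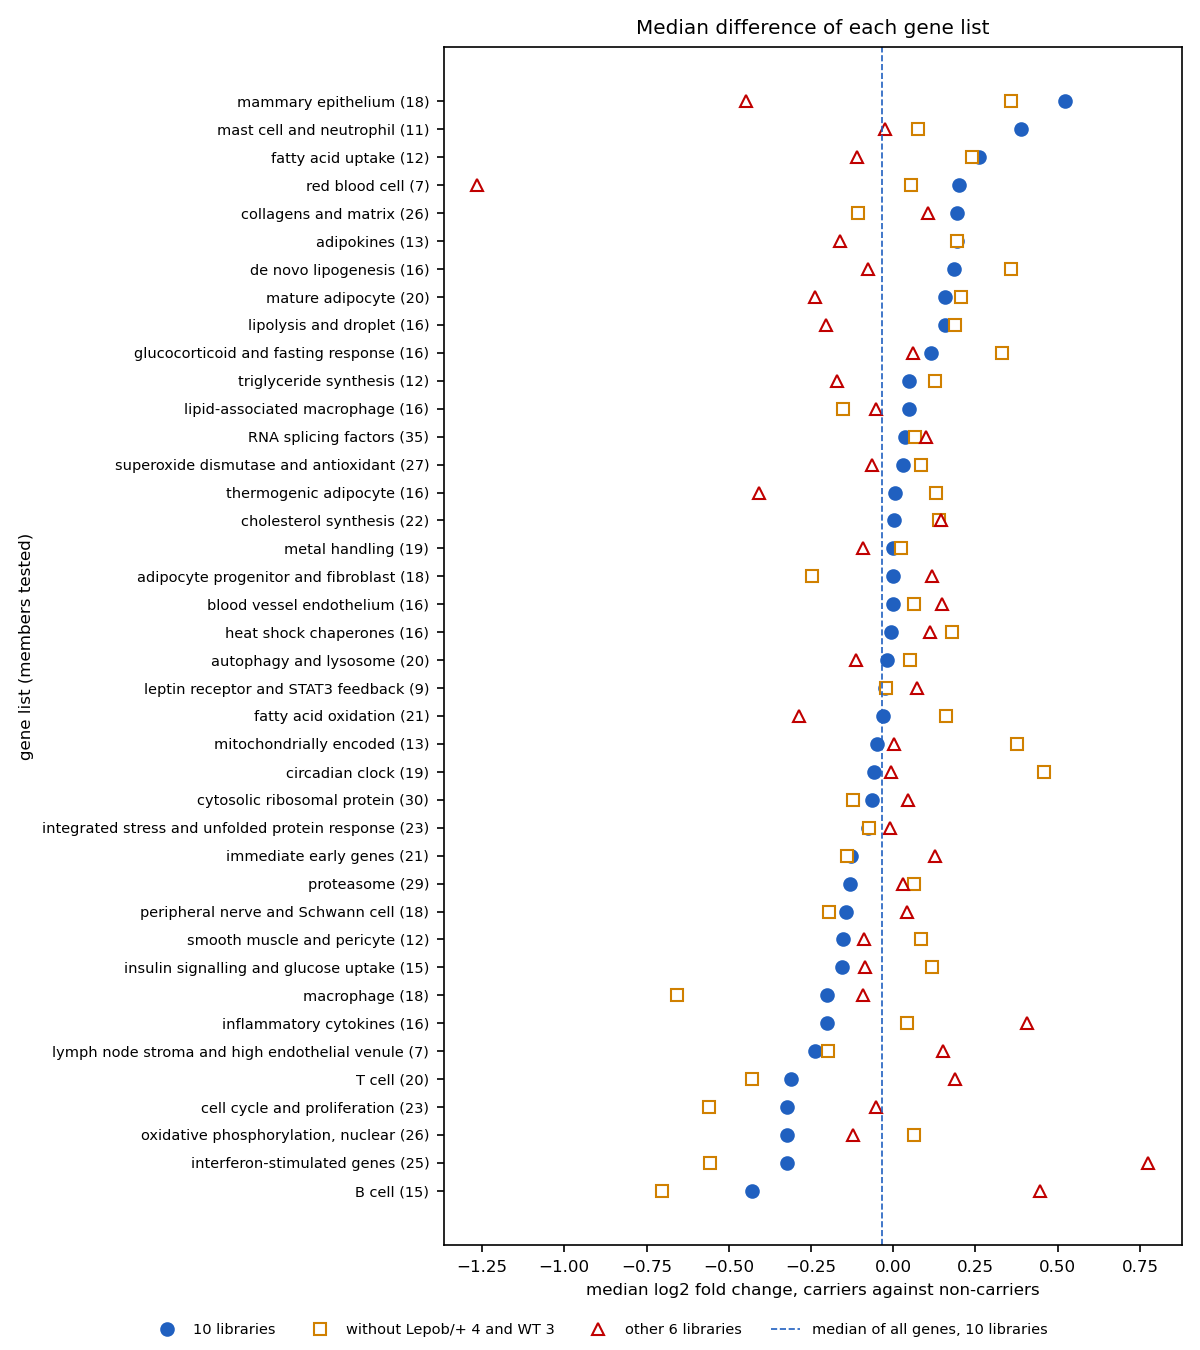
Median log2 fold change of carriers against non-carriers (x axis) of each of 40 gene lists with the number of members tested (y axis), in the 10 lymph node poor libraries (filled circles), without Lepob/+ 4 and WT 3 (squares) and in the other 6 libraries (triangles). The dashed line is the median of all genes in the 10 libraries, and the medians run from -0.43 for B cell genes to 0.52 for mammary epithelium.

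Most adipocyte genes were slightly higher in carriers. Of 20 mature adipocyte markers, 17 were higher, with a median of 0.16 and none at an unadjusted p under 0.05. The median was 0.21 without the muscle-bearing libraries, 0.22 with the Lepob/+ covariate and -0.24 in the other 6 libraries. Their summed level was 51150 to 60720 CPM in carriers and 37870 to 64580 CPM in non-carriers, where the lowest was the muscle-rich Lepob/+ 4. Of 16 genes of de novo lipogenesis 14 were higher (median 0.18), and the median was 0.62 with the Lepob/+ covariate. Elovl3, a fatty acid elongase and the 1 member at an unadjusted p under 0.05, was at 0.107 to 2.41 CPM in carriers and 0 to 0.578 CPM in non-carriers. Medians were 0.26 for fatty acid uptake, 0.20 for adipokines, 0.16 for lipolysis and droplet proteins, and 0.05 for triglyceride synthesis. Of 16 genes of thermogenic adipocytes 8 were higher and 8 lower. Ucp1, the uncoupling protein of heat-producing adipocytes, reached 26.7 CPM in the library labelled SOD1G93A-Lepob/+ 3 and between 0.166 and 3.52 CPM in the other 9, with a log2 fold change of 1.98 that was 0.11 without that library. Ehhadh, an enzyme of peroxisomal fatty acid oxidation, was higher in carriers of the 10 (0.45 ± 0.20) and lower in carriers of the other 6 (-1.12).

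Lists of energy and protein turnover were mostly lower in carriers, and some of their medians changed sign without the muscle-bearing libraries. All 26 nuclear genes of oxidative phosphorylation were lower, with a median of -0.32 that was 0.06 without Lepob/+ 4 and WT 3. Of 29 proteasome genes 28 were lower (median -0.13, and 0.06 without both libraries), and the 13 mitochondrially encoded genes had a median of -0.05 that was 0.38 without them. Their summed level was 123200 CPM in Lepob/+ 4, 45680 to 60280 CPM in the other 4 non-carriers and 51050 to 71820 CPM in carriers. The part of muscle RNA in other lists was not tested. In CPM, Cpt1b (277.7), Pdk4 (1014), Des (4261), Chac1 (133.3), Nr4a1 (296.7) and Fbxo32 (582.5) were each highest in Lepob/+ 4 by a wide gap. Of 30 ribosomal protein genes 28 were lower, by a median of -0.06 and of -0.12 without both libraries.

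In the circadian clock list 9 genes were higher and 10 lower. The median was -0.06, and 0.46 without the muscle-bearing libraries. The 2 at an unadjusted p under 0.05 were Arntl and Bhlhe40. Arntl, the gene of the activator BMAL1, was at 3.88 CPM in SOD1G93A 3 and 6.42, 11.0, 11.1 and 6.87 in SOD1G93A-Lepob/+ 1 to 4. In non-carriers it was 7.19 and 15.4 CPM in WT 3 and 4 and 19.2, 19.1 and 15.4 in Lepob/+ 1, 2 and 4. WT 3 alone lay within the range of the carriers. The log2 fold change was -0.96 ± 0.33, -1.18 without the muscle-bearing libraries and -0.02 in the other 6. Per2, a repressor of the clock named after its values were seen, was at 28.3 to 70.8 CPM in carriers and 20.2 to 44.9 CPM in non-carriers (0.56). Bhlhe40 was highest in the muscle-bearing Lepob/+ 4 (227.5 CPM) and WT 3 (186.7 CPM), and its log2 fold change of -0.71 was -0.14 without them. The hour at which tissue was taken is not given in the sources used here.

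Immune lists were mostly lower in carriers in the 10 libraries, with no member called. Of 25 interferon-stimulated genes 22 were lower (median -0.32), summing to 1389 to 2992 CPM in carriers and 1662 to 3682 CPM in non-carriers. The median was -0.56 without the muscle-bearing libraries, -0.27 without the library labelled SOD1G93A-Lepob/+ 3, and 0.78 in the other 6. Of 18 macrophage genes 15 were lower, with a median of -0.20 that was -0.66 without the muscle-bearing libraries. Their summed level was 3779 to 5801 CPM in carriers, and the non-carriers lay on both sides of this range. WT 4 was at 9678 CPM, Lepob/+ 2 at 9700 and Lepob/+ 1 at 4637, while the muscle-bearing WT 3 and Lepob/+ 4 were at 2116 and 2305. Leaving out the muscle-bearing libraries thus takes away the lowest non-carriers. Of 20 T cell genes 18 were lower (median -0.31) and of 15 B cell genes 13 were lower (median -0.43), against 0.19 and 0.45 in the other 6. With the Lepob/+ covariate the medians were -0.24 and -0.14, and without the library labelled SOD1G93A-Lepob/+ 3 they were -0.23 and -0.29. T cell genes summed to 19.4 to 36.8 CPM in carriers and 26.4 to 55.4 CPM in non-carriers, levels that the choice of libraries without lymph node transcripts keeps low. The highest sum was that of WT 4, and the other non-carriers lay at 26.4 to 32.8 CPM, within the range of the carriers. B cell genes summed to 302.5 to 642.2 CPM in carriers and 312.9 to 569.8 CPM in non-carriers, so their sums were not lower in carriers. Cd8b1 (0.247 against 0.569 CPM) and Ighd (3.79 against 6.92 CPM) were the members at an unadjusted p under 0.05. Of 7 genes of lymph node stroma tested 5 were lower (median -0.24), and of 16 inflammatory cytokines 11 (median -0.20). The lymph node stroma genes summed to 280.7 to 354.9 CPM in carriers and 252.4 to 324.5 CPM in non-carriers. The cytokine median was 0.04 without the muscle-bearing libraries and 0.41 in the other 6.

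Genes of mast cells and neutrophils went the other way, 9 of 11 being higher with a median of 0.39. Cpa3, a mast cell protease, was at 25.1 CPM in SOD1G93A 3 and 21.5, 26.6, 25.8 and 27.9 in SOD1G93A-Lepob/+ 1 to 4, against 9.78, 18.5, 23.1, 21.5 and 6.96 CPM in the 5 non-carriers. The lowest values were those of the muscle-bearing WT 3 and Lepob/+ 4. Without them the log2 fold change of 0.67 was 0.28 and the median of the list was 0.08. Mmp12, a macrophage elastase among genes of lipid-associated macrophages (9 of 16 higher, median 0.05), was at 20.7 CPM in the library labelled SOD1G93A-Lepob/+ 3 and at 1.36 to 2.70 CPM in the other 9. Its log2 fold change was 1.93 with that library and 0.45 without it.

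Among structural cells, 22 of 26 collagens and matrix genes were higher (median 0.20), but the median was -0.11 without the muscle-bearing libraries and -0.01 without the library labelled SOD1G93A-Lepob/+ 3. That library had the highest summed level of the list, 43890 CPM. Progenitor and fibroblast genes and endothelial genes were split evenly, with medians of 0.00 in both, which were -0.25 and 0.06 without the muscle-bearing libraries. Mammary epithelium genes were higher for 16 of 18 (median 0.52), with sums of 2343 to 3988 CPM in carriers and 1748 to 3083 CPM in non-carriers, and their median was -0.45 in the other 6. Of 18 genes of peripheral nerve and Schwann cells 14 were lower (median -0.15), and Mag, a protein of the myelin sheath, was at 2.99 to 5.17 CPM in carriers against 4.45 to 7.29 CPM (-0.55 ± 0.20). Of 23 genes of the cell cycle 21 were lower (median -0.32), and 5 of 7 red blood cell genes were higher (median 0.20). The red blood cell median was 0.05 without the muscle-bearing libraries and -1.26 in the other 6, and the cell cycle median was -0.56 and -0.05. Without the library labelled SOD1G93A-Lepob/+ 3 the medians of mammary epithelium and of the cell cycle were 0.70 and -0.56.

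A few members of the remaining lists were higher in carriers in both sets of libraries. Dnajb1, a co-chaperone of Hsp70, was at 33.8 to 40.8 CPM in carriers and 26.03 to 35.02 CPM in non-carriers, a log2 fold change of 0.24 ± 0.10, and 0.21 in the other 6. It was the 1 of 16 heat shock chaperones at an unadjusted p under 0.05, and their median was -0.01. Of 35 RNA splicing factors 21 were higher (median 0.03), and Srsf10 (0.42 ± 0.15) and Luc7l3 (0.37 ± 0.17) were at an unadjusted p under 0.05, with values of 0.28 and 0.60 in the other 6. Genes of the unfolded protein response (-0.08), metal handling (0.00), autophagy and lysosome (-0.02), fatty acid oxidation (-0.03) and cholesterol synthesis (0.00) had medians near that of all genes. Immediate early genes (-0.13), insulin signalling (-0.16), smooth muscle (-0.15) and the fasting response (0.11) lay farther from it, and the medians of insulin signalling, smooth muscle and the fasting response were 0.12, 0.08 and 0.33 without the muscle-bearing libraries. Without them the medians of heat shock chaperones, cholesterol synthesis and fatty acid oxidation were 0.18, 0.14 and 0.16. Cox17, a copper chaperone, was at 33.5 ± 3.99 CPM in carriers and 46.7 ± 15.8 CPM in non-carriers, with 71.6 CPM in Lepob/+ 4. Dlk1, a progenitor marker, was at 3.67 ± 1.33 against 2.53 ± 0.263 CPM, and its log2 fold change of 0.54 was 0.36 without the library labelled SOD1G93A-Lepob/+ 3. Ddit4 (-0.12 ± 0.47), Itgav (-0.39 ± 0.87) and Aqp5 (-0.03 ± 0.64) overlapped widely. Itgav, an integrin subunit, was at 26.3, 24.6 and 33.4 CPM in WT 3, WT 4 and SOD1G93A-Lepob/+ 1 and at 2.95 to 4.56 CPM in the other 7, so its 3 high libraries were of 2 genotypes and of both carrier groups. Outside the 10, WT 2 was at 39.0 CPM and the rest were at 4.55 to 8.15 CPM.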

How the data were processed

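RNA of iWAT was extracted with Qiazol and a lipid tissue kit. The paper names TruSeq Stranded libraries and the sample labels a NEBNext kit, and the strand setting and annotation release are not given in the sources used here. The authors trimmed reads with fastp, aligned them to mm10 (GRCm38) with HISAT2 2.1.0 and assigned those that mapped to 1 place to genes with featureCounts 2.0.2 (versions per the submitters' processing notes). The deposited values are raw counts for 54752 Ensembl genes, of which 54723 were paired with a symbol and a GRCm38 position from the GENCODE annotation used here. Total counts per library ran from 36795376 to 61886313.

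The 10 libraries with Glycam1 at or below 1 CPM were fitted by carrier status in R 4.3.3 with edgeR 4.0.16, using filterByExpr (min.count 10, min.total.count 15), TMM, a robust quasi-likelihood F test, and Benjamini-Hochberg adjustment over all genes at 0.05. CPM are scaled by TMM, and differences are log2 fold changes of carriers minus non-carriers with an SE. Means are ± SD over 5 libraries per group. An interaction fit used all 16 libraries, and the other 6 were fitted alone. The study's methods name DESeq2, which is an alternative here. Each mouse gave 1 library, as far as the labels say, so p-values measure the spread between these libraries.

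The members and the 42 lists were chosen with earlier results of these data known. Genes named were the 10 of smallest p in each direction among those without overlap and at 1 CPM or more in the higher group, since none was called; the 2 members of smallest p in each list; and 10 fixed genes. Per2 and the genes separated in both sets were named after their values were seen.

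The fit was repeated with size factors from DESeq2, with TMM factors taken outside muscle and lymphoid lists, without the muscle list, unfiltered, with a stricter filter (at least 1 CPM in 5 libraries), with a replicate block, with Lepob/+ as a covariate, in the Lepob/+ background alone, in 1 fit of all 16 libraries, with DESeq2 1.42.0 and limma 3.58.1 (voom with quality weights), and leaving libraries out. The count of genes without overlap was also taken without the muscle-bearing libraries and the library with Y transcripts, a choice made after seeing the data. The procedure was tested on simulated counts. A few genes that enter the counts are not reported here. Genes near 1 CPM rest on few counts in each library.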

Additional observations from a re-analysis of the deposited data

Results flagged for a closer look

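Within groups of 5 libraries, the highest or lowest value stood apart from the other 4 by Dixon's test in 42 of 214 groups, over 107 named genes. Chance flags about 1 in 20 groups. Lepob/+ 4, which holds muscle RNA, gave 19 of the 42, WT 3 gave 6 and the library labelled SOD1G93A-Lepob/+ 3 gave 4.

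In Lepob/+ 4 the highest values, in CPM, were those of Slc16a3 (169.7), Cpt1b (277.7), Cox7a1 (129.2), Pdk4 (1014), Des (4261), Lmod1 (66.68), Saa3 (1.54), Chac1 (133.3), Tfeb (94.38), Nr4a1 (296.7), Fbxo32 (582.5), mt-Nd1 (12060), mt-Nd5 (8776), Mcm2 (20.89), Bpgm (113.2), Ryr1 (4945) and Trdn (508.5). The same library was lowest for Sod3 (263.9) and Elovl5 (69.96). WT 3, the other muscle-bearing library, was highest for Gm37397 (1.257), Garnl3 (12.19), F3 (75.54), Robo4 (107.4) and Esam (111.5).

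The library labelled SOD1G93A-Lepob/+ 3 was highest for Ucp1 (26.69), Hmgcs1 (169.8) and Mmp12 (20.73) and was at 0 for Xist. SOD1G93A-Lepob/+ 4 was highest for Pfkfb4 (23.06), Srsf10 (66.3) and Lalba (2.461). WT 4 was highest for Gm36723 (1.736), Mmp12 (1.838) and Cd22 (3.727). Lepob/+ 1 was highest for Gclc (65.77) and Cdh1 (81.03) and lowest for Lalba (0.2103). Single flags fell on Fcgr1 in Lepob/+ 2 (73.28), Gm37397 in SOD1G93A-Lepob/+ 2 (3.435), Itgav in SOD1G93A-Lepob/+ 1 (33.42) and mt-Nd5 in SOD1G93A 3 (4673).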

How the results depend on the processing

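edgeR called no gene between carriers and non-carriers in any alternative but 1, the fit without SOD1G93A-Lepob/+ 4 (0 to 1 called with single libraries left out), while DESeq2 called 3. For the interaction, DESeq2 called 18 genes and leaving out single libraries gave 0 to 1, namely Gm49333, Vps11 or Gm26712. Genes at an unadjusted p under 0.05 numbered 795 of 18218 tested. They numbered 1365 of 29330 without a filter and 1415 of 20157 in 1 fit of all 16 libraries. Without both muscle-bearing libraries they were 1505 of 18733, and without these and the library with Y transcripts 1727 of 18452. With single libraries left out they ran from 548 of 18256 to 1115 of 18496. Non-overlapping genes numbered 104 of 18218 tested, but 228 of 18292 without the library with Y transcripts. They numbered 878 of 18733 without both muscle-bearing libraries and 1552 of 18452 without all 3. Leaving libraries out also leaves fewer to separate, so these counts are not comparable with the 104. With the replicate block 543 genes were at an unadjusted p under 0.05 and 0 were called. Of 8 pairs with the same number, 2 correlated above 0.1 and 2 below -0.1. So few pairs cannot show whether libraries of the same number share more than the number.

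Of 107 named genes, 89 kept their direction in all alternatives that could be fitted, which the choice of genes without overlap fixes for 20 of them when libraries are left out, and 59 of 2447 values reversed. The cause was not tested. Without both muscle-bearing libraries, the log2 fold changes that reversed were Sod2 (0.31), Aqp5 (0.20), Cpt1b (0.90), Cox7a1 (0.0163), Pdk4 (0.12), Des (0.14), Lmod1 (0.33), Tfeb (0.0701), mt-Nd1 (0.38) and mt-Nd5 (0.29). Also without the library with Y transcripts they were Sod2 (0.31), Sod3 (-0.10), Ucp1 (-0.0622), Itgav (0.0475), Aqp5 (0.42), Agpat3 (0.0288), Cpt1b (0.82), Pdk4 (0.17), Des (0.13), Lmod1 (0.33), Tfeb (0.14), Fbxo32 (0.0405), mt-Nd1 (0.41) and mt-Nd5 (0.32). With voom they were Sod2 (0.15), Ucp1 (-0.11), Aqp5 (0.0744), Cpt1b (0.59), Pdk4 (0.0522), Lmod1 (0.21), mt-Nd1 (0.28) and mt-Nd5 (0.23). The Lepob/+ covariate gave Itgav 0.63 and Aqp5 0.53, the Lepob/+ background alone gave Itgav 1.45, Aqp5 1.30 and Cd22 0.20, and the replicate block gave mt-Nd1 0.0169. With single libraries left out, ranges were -0.0638 to 0.14 for Sod1, -0.37 to 0.10 for Sod2, -0.0044 to 0.34 for Sod3, -0.41 to 0.11 for Ddit4, -1.78 to 0.0593 for Itgav, -0.48 to 0.40 for Aqp5, -3.29 to 0.24 for Cpt1b, -2.24 to 0.0317 for Pdk4, -1.48 to 0.23 for Lmod1, -0.80 to 0.0169 for Cd22, -0.30 to 0.30 for mt-Nd1 and -0.29 to 0.29 for mt-Nd5. Of 965 list medians, 17 moved by more than the SD between libraries.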
